A study of Mus musculus with 16 samples.

Results

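The potassium channel subunit genes comprised every gene whose symbol is Kcn followed by 1 or 2 letters and a number, which selected 92 of the 48397 gene symbols counted in each library. Within this family the members were taken by symbol alone. Of these genes, 77 encode pore-forming subunits and 15 encode auxiliary subunits, and 75 had at least 10 counts in at least 4 libraries and entered the tests together with the other genes, 17331 in all.

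RNA sequencing was performed on primary hippocampal neurons from newborn wild type CD1 mice, with 4 libraries in each of 4 groups. All cultures, the control neurons included, received cytosine arabinoside at 3 days in vitro (DIV), medium conditioned by immortalized astrocytes at 10 and 13 DIV, and were harvested at 17 DIV. This medium had been concentrated 10-fold and was added at 1:10. The control neurons were given medium from Apoe-/- astrocytes and the other groups medium from lines homozygous for human apoE2, apoE3 or apoE4, so that effects of the apoE isoform and of any other difference between these lines cannot be told apart. The neurons themselves were wild type. The same replicate numbers, 1 to 4, occur in each group. The study describes the libraries of each group as coming from independent neuronal cultures.

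Potassium channels let potassium leave the cell along its gradient and so set the resting potential, end the action potential and limit repetitive firing. Voltage-gated (Kv) channels open upon depolarization, the SK, BK and Slo2 channels are opened by intracellular calcium or sodium, the inward rectifiers (Kir) conduct near rest and include the G protein-activated and the ATP-sensitive channels, and the K2P channels carry background current. In the hippocampus neurons and glia use different members: astrocytes buffer extracellular potassium mainly through Kir4.1, the product of Kcnj10.

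All 77 pore-forming members carry the potassium selectivity filter signature in their coding sequence, the 14 K2P members carry it at 2 places, and none of the 15 auxiliary members carries it. The coding sequences around this signature are shown for 6 members on which the comparisons turn, because it is what the pore-forming members share apart from their names. They were read from GENCODE transcripts on mm10, each on the strand of its gene, and the capitals mark the 15 bases of the signature codons. For Kcnk1 the second signature is shown. A match is a description of the sequence.
Kcnj8, chr6:142566442-142566468, minus strand: caagtgACCATTGGGTTTGGAgggaga
Kcnj10, chr1:172369296-172369322, plus strand: cagaccACCATCGGCTATGGCttccgc
Kcnj9, chr1:172326178-172326204, minus strand: gagaccACCATCGGCTATGGGcaccgg
Kcnk1, chr8:126025323-126025349, plus strand: ctgagcACCATCGGCCTGGGGgactat
Kcnc2, chr10:112456223-112456249, plus strand: atgactACCTTAGGTTACGGGgatatg
Kcnt1, chr2:25894361-25894387, plus strand: ttctcaACTGTGGGCTTCGGTgatgtg

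The libraries held 14087723 to 34248172 counts assigned to genes, and the members took 0.252 to 0.452% of them. Levels are given as CPM, the counts scaled to a common library total after TMM normalization. Markers of neurons were counted in all groups (8 of 8 listed), but so were markers of other cells. The summed level of 7 astrocyte markers was 396 to 2145 CPM in the control libraries, 584 to 2106 CPM with apoE2, 641 to 5099 CPM with apoE3 and 569 to 4088 CPM with apoE4. The summed level of the 8 neuronal markers was 4042 to 6812, 4419 to 7268, 2894 to 6612 and 3345 to 6677 CPM in the same order. By replicate number, from 1 to 4, the astrocyte markers averaged 2123, 547, 1676 and 3358 CPM and the neuronal markers 4681, 6375, 6817 and 3675 CPM. In bulk RNA, fewer cells of a type and less RNA per cell cannot be told apart.

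The level of each member in the control neurons was compared per length, as CPM per kilobase of exon. Of the 92 members, 54 stood at 1 CPM per kilobase or more. Kcnj4, which encodes the strong inward rectifier Kir2.3, was highest at 66.6 ± 14.1 CPM per kilobase (SD, n = 4), followed by Kcnab2, a cytoplasmic beta subunit of Kv1 channels, at 49.4 ± 12.5, Kcnip2, a calcium-binding auxiliary subunit of Kv4 channels, at 47.4 ± 9.89, and Kcnk1, which encodes the K2P channel TWIK-1, at 45.5 ± 7.21 CPM per kilobase. From Kcnab2 to Kcnk1 the neighbours differed by less than 1 SD, whereas Kcnj4 stood further above Kcnab2. Kcnj3, a G protein-activated inward rectifier subunit, followed at 34.6 ± 6.38 CPM per kilobase.

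Levels in the voltage-gated families are given next, and bulk RNA does not assign them to a cell type or to dendrites or axons. Kcna1 and Kcna4, which encode Kv1 subunits of axons, stood at 32.0 ± 8.30 and 28.6 ± 7.77 CPM per kilobase, Kcnd2, which encodes Kv4.2 of the dendritic A-type current, at 21.1 ± 4.25, and Kcnq5, a subunit of the M-current, at 18.3 ± 8.15 CPM per kilobase. Kcnh3 and Kcnh1 led the ether-a-go-go family at 16.3 ± 2.58 and 13.7 ± 2.81 CPM per kilobase. Kcnb2, the delayed rectifier Kv2.2, reached 2.81 ± 0.284 CPM per kilobase, whereas the fast Kv3 subunits Kcnc4 and Kcnc1 reached 9.76 ± 1.496 and 9.12 ± 2.41. Kcnv1 and Kcnf1, which encode electrically silent subunits that modify Kv2 channels, stood at 18.3 ± 9.98 and 11.2 ± 4.32 CPM per kilobase.

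The calcium- and sodium-activated channels were lower per length. The BK pore gene Kcnma1 stood at 6.78 ± 1.48 CPM per kilobase, Kcnn1 and Kcnn2 of the SK channels at 6.24 ± 2.32 and 4.37 ± 2.06, and Kcnt2 and Kcnt1 of the Slo2 channels at 3.59 ± 0.910 and 1.51 ± 0.679. The BK beta subunit gene Kcnmb2 reached 0.940 ± 0.361 CPM per kilobase, the highest of the 4 BK beta genes. Kcnk10, second among the K2P genes, stood at 3.39 ± 0.623 CPM per kilobase. Kcnj10 and Kcnj16, which encode the astrocytic Kir4.1 and Kir5.1, stood at 19.4 ± 12.6 and 2.88 ± 1.91 CPM per kilobase and ranged widely between libraries, from 4.13 to 32.9 and from 1.06 to 5.40.

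At the low end, 17 members fell below the count minimum, with 0 to 86 counts summed over the 16 libraries. They include all 4 Kcne genes, auxiliary subunits best known from heart and epithelia, and Kcnq1, their usual partner, as well as Kcna7, Kcna10, Kcnj1, Kcnj13, Kcnj14, Kcnj15, Kcnk7, Kcnk15, Kcnk16, Kcnk18, Kcnmb3 and Kcnv2. Kcnj1 had no count in any library. No change was computed for these genes.

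**Figure D1:**
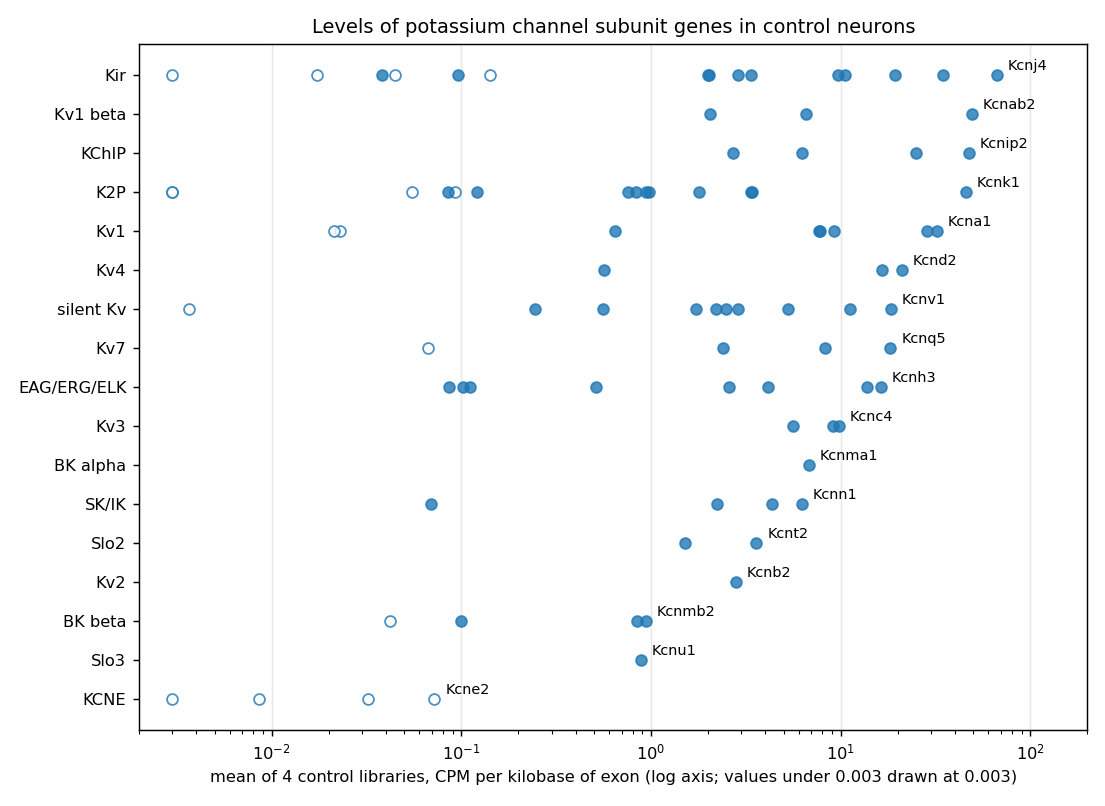
Mean level of 89 of the 92 members in the 4 control libraries, by family, in CPM per kilobase of exon on a log axis. Filled circles mark members that were tested and open circles the 17 below the count minimum, and the highest member drawn in each family is named, from Kcnj4 at 66.6 CPM per kilobase downwards.

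Exons of some members overlap other genes, and the strand setting of the counting was not given in the sources used here. By the GENCODE annotation the share of exon bases overlapped on the opposite strand was 39.6% for Kcna6, 31.1% for Kcnj3, 12.2% for Kcnk2, 8.01% for Kcnk1, 4.01% for Kcnj9 and 2.34% for Kcnab1, and on the same strand it was 13.1% for Kcnk4. Reads from these stretches cannot be assigned with certainty.

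The question asked of each apoE isoform is whether its lipoproteins change gene expression in neurons relative to the control neurons, and the members were followed through these 3 comparisons, which share the control libraries, and through the 3 comparisons between isoforms. With edgeR's quasi-likelihood test and Benjamini-Hochberg adjustment, no member passed an adjusted p of 0.05 in any of the 6 comparisons, against 0% of all genes tested with apoE2, 0.00577% with apoE3, 0.196% with apoE4, 0.144% for apoE4 vs. apoE3, 0.225% for apoE4 vs. apoE2 and 0% for apoE3 vs. apoE2. DESeq2 without a block called 0 members in each as well. At an unadjusted p under 0.05 there were 1, 5, 0, 1, 1 and 2 members in the same order of comparisons, against 2.74, 6.43, 3.27, 4.74, 5.27 and 2.31% of all genes. The criterion of at least a 2-fold change with an unadjusted p under 0.05 was met by 0, 2, 0, 0, 0 and 1 members, against 0.715, 2.07, 1.17, 1.34, 1.29 and 0.733% of all genes.

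When the replicate number entered the model as a block, 3, 13, 1, 2, 4 and 4 members passed an adjusted p of 0.05 in edgeR, again in that order, against 1.72, 11.4, 3.25, 1.73, 4.35 and 1.29% of all genes tested. Changes described as having risen or fallen passed in this blocked fit, and none of them passed an adjusted p of 0.05 without the block. Each blocked edgeR call of a member was recomputed without each of the 16 libraries in turn, and the number of these 16 fits that kept the call is given where it was lost, with the highest adjusted p. Calls of marker and partner genes were not recomputed in this way.

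The comparison of apoE3 with the control neurons had the most members called of the 6. In the blocked edgeR fit 9 members fell, or 12% of the 75 against 3.57% of all genes, and 4 rose, or 5.33% against 7.86%. Those that fell were Kcnmb2, Kcnk4, Kcnab1, Kcnc2, Kcnd2, Kcnj9, Kcnab2, Kcnk1 and Kcnj4, and those that rose were Kcnj8, Kcnk13, Kcnj10 and Kcnk2. The median log2 fold change of the 75 members was -0.14 without the block, beside 0.01 over all genes, and 69.3% of the members were lower than in the control neurons, beside 47.6% of all genes. In the same comparison 7 of the 8 neuronal markers had lower values, with a median log2 fold change of -0.20, and 7 of the 7 astrocyte markers had higher values, with a median of 0.83. The 7 oligodendrocyte-lineage markers were also higher, with a median of 0.83, and Cspg4 and Olig2 were called in the blocked edgeR fit. Both markers of dividing cells, Mki67 and Top2a, were higher, with a median of 1.53, and Top2a was called, at a blocked log2 fold change of 2.59 (edgeR, adjusted p = 0.000537). The part of these cell types in the members' shift was not tested.

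Kcnc2, which encodes Kv3.2, a fast delayed rectifier known from inhibitory interneurons, had 37.3, 52.4, 39.7 and 30.4 CPM in control libraries 1 to 4 and 27.1, 33.9, 20.5 and 17.2 CPM in the apoE3 libraries. It was lower with apoE3 in all 4 same-numbered pairs, although the groups overlapped. Its log2 fold change was -0.71 ± 0.11 (SE, blocked edgeR fit, adjusted p = 0.00123) and -0.70 ± 0.22 without the block (adjusted p = 0.583). The call was made in each of the 16 edgeR fits that left out 1 library. Gad1, the interneuron marker that synthesizes GABA, also fell with apoE3, by 0.68 on the log2 scale in the blocked edgeR fit (adjusted p = 0.00383), from 259 ± 55.2 to 163 ± 55.2 CPM. Gad2, the other GABA-synthesizing enzyme, had 110 ± 18.6 and 91.8 ± 18.0 CPM and did not pass the same edgeR test (adjusted p = 0.0971). The part of these cells in the Kcnc2 result was not tested.

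The other fast and A-type subunits did not all follow. Of the 4 Kv3 genes all had lower values with apoE3, with a median log2 fold change of -0.29, but Kcnc2 was the only one of them that passed in the blocked edgeR fit. Among the Kv4 genes Kcnd2 fell, from 108, 125.5, 123 and 77.9 CPM in control libraries 1 to 4 to 65.3, 109, 83.4 and 36.7 CPM with apoE3. This was a decrease in each pair with overlapping groups, by 0.63 ± 0.14 on the log2 scale (SE, blocked edgeR fit, adjusted p = 0.0104). Kcnd2 was chosen for this comparison after its values were seen. All 4 genes of the KChIPs, which bind Kv4 channels, had lower values, and none of them passed in this edgeR fit. Kcnip2 was called lower by DESeq2 with the block, chosen after seeing the data. It was also called by the blocked edgeR fits without apoE2 library 4, apoE3 library 2 or control library 2.

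Kcnab1, a beta subunit that confers inactivation on Kv1 channels, had 71.0, 38.9, 65.3 and 51.2 CPM in control libraries 1 to 4 and 37.5, 36.8, 38.8 and 20.5 CPM with apoE3. All 4 apoE3 libraries lay below all 4 control libraries, a separation shown in this direction by 1.22% of all genes. Kcnab1 fell by 0.73 ± 0.17 on the log2 scale (SE, blocked edgeR fit, adjusted p = 0.0138), and without the block its log2 fold change was -0.76 ± 0.25 (edgeR, adjusted p = 0.633). The blocked call was lost without control library 1 (edgeR, adjusted p = 0.0737). Kcnab2, which like Kcnk4, Kcnk2 and Kcnj4 is described for this comparison after the values were seen, fell by 0.37 ± 0.10, while the third beta subunit gene, Kcnab3, had a lower value and did not pass. The 6 tested Kv1 pore genes had a median log2 fold change of -0.08 and none passed. The Kcnab2 call was kept in 11 of 16 fits (edgeR, highest adjusted p = 0.108), not without apoE3 library 1, 3 or 4 or control library 1 or 4.

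Kcnmb2 encodes the beta2 subunit that makes BK channels inactivate. It had 2.09, 4.17, 1.88 and 3.62 CPM in control libraries 1 to 4 and 1.22, 1.60, 1.29 and 1.12 CPM with apoE3, so that all apoE3 libraries lay below all control libraries. The log2 fold change was -1.16 ± 0.34 without the block (edgeR, adjusted p = 0.561) and -1.08 ± 0.27 with it (edgeR, adjusted p = 0.0181). Kcnmb2 therefore met the criterion of a 2-fold change with an unadjusted p under 0.05, as did 0.779% of all genes in this direction. It no longer reached 2-fold without control library 2, where the log2 fold change was -0.94. With apoE2 and apoE4 it stood at 1.64 to 3.64 and 1.49 to 3.01 CPM, and the log2 fold changes were -0.38 ± 0.33 in both comparisons with the control neurons. Its pore-forming partner Kcnma1 had a log2 fold change of -0.16 ± 0.33 with apoE3. The blocked call was kept in 13 of 16 fits (edgeR, highest adjusted p = 0.0776), not without apoE3 library 1 or 4 or control library 2.

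Kcnj8, which encodes the pore of the ATP-sensitive channel Kir6.1 and is best known from pericytes and smooth muscle, was the other member past that criterion and had the lowest control level per length of those tested, 0.0382 CPM per kilobase. It had 0, 1, 1 and 6 counts in control libraries 1 to 4 (0, 0.0401, 0.0348 and 0.315 CPM) and 6, 4, 8 and 31 counts with apoE3 (0.458, 0.164, 0.304 and 2.05 CPM). Kcnj8 reached 10 counts in 4 libraries, the minimum for testing. These were apoE2 libraries 3 and 4, apoE3 library 4 and apoE4 library 4, so that Kcnj8 entered the tests through isoform libraries only. Each apoE3 library exceeded its same-numbered control library, but the groups overlapped, and library 4 was the highest of both. The log2 fold change was 2.94 ± 1.06 without the block (edgeR, adjusted p = 0.735) and 2.83 ± 0.55 with it (edgeR, adjusted p = 0.00480). Summed over libraries, 49 counts against 8 gave a ratio of 7.34, corrected for library size, with an exact 95% interval of 3.45 to 17.96, which covers counting error only. Without apoE3 library 4 the unblocked log2 fold change was 1.68, and Kcnj8 no longer met the 2-fold criterion.

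Kcnj8 was also higher than in the same-numbered control library in 4 of 4 pairs with apoE2, at 0.282, 0.114, 0.421 and 0.866 CPM, and with apoE4, at 0.475, 0.114, 0.166 and 0.817 CPM. The blocked log2 fold changes were 2.25 ± 0.56 (edgeR, adjusted p = 0.0586) and 2.08 ± 0.59 (edgeR, adjusted p = 0.0695), neither of which passed. With apoE2 Kcnj8 was called higher in the blocked edgeR fit without apoE2 library 4 (adjusted p = 0.0345) and in that without all libraries numbered 4, where the log2 fold change was 3.14 (adjusted p = 0.04885). The summed level of 9 vascular and fibroblast markers was 19.8 to 115.5 CPM in the control libraries, 17.6 to 93.6 with apoE2, 19.3 to 219 with apoE3 and 19.99 to 181 with apoE4, and none of these markers was at 0 in a group. Of the 6 that could be tested, 6 had higher values with apoE3, 6 with apoE4 and 3 with apoE2, and in the blocked edgeR fit Col1a1 with apoE4 was the only one called. The part of vascular cells in the Kcnj8 result was not tested.

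Kcnj10 had 139, 22.3, 79.7 and 178 CPM in control libraries 1 to 4, 231, 36.6, 118 and 367 CPM with apoE3, and 249, 33.5, 129 and 289 CPM with apoE4. Number 2 was far below the other numbers in each group and the groups overlapped widely, but every apoE3 and apoE4 library exceeded its same-numbered control library. Kcnj10 rose by 0.78 ± 0.13 on the log2 scale with apoE3 (SE, blocked edgeR fit, adjusted p = 0.00233) and by 0.71 ± 0.13 with apoE4 (adjusted p = 0.00736). Without the block the log2 fold changes were 0.85 ± 0.79 and 0.74 ± 0.78, with edgeR adjusted p of 0.814 and 1.00. With apoE2 the 4 libraries had 196, 28.4, 137 and 181 CPM and the blocked log2 fold change was 0.43 ± 0.13 (edgeR, adjusted p = 0.124). Kcnj10 was called higher with apoE2 in the blocked edgeR fit without apoE2 library 4 (adjusted p = 0.00684) and in that without all libraries numbered 4, where the log2 fold change was 0.54 (adjusted p = 0.0120). Kcnj10 was the only member called with apoE4, where the share over all genes was 3.25%, and both its calls were made in each of the 16 edgeR fits that left out 1 library. The same holds for Kcnc2, Kcnj8 and Kcnd2 with apoE3 and for Kcnip3 with apoE2.

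The astrocyte markers moved with Kcnj10. All 7 had higher values with each isoform, and in the blocked edgeR fit 7 of 7 rose with apoE3, 4 with apoE4 (Aqp4, Gfap, Gja1 and Sox9) and 0 with apoE2. Per 1000 CPM of summed astrocyte markers, Kcnj10 stood at 87.5 ± 36.7 CPM in the control libraries, 78.2 ± 19.99 with apoE2, 64.7 ± 8.16 with apoE3 and 77.9 ± 25.3 with apoE4, and the isoform group means were all below the control mean. Kcnj16, whose product joins Kir4.1 in astrocytes, had 7.04, 4.17, 12.8 and 21.3 CPM in control libraries 1 to 4 and 11.1, 5.03, 14 and 30.6 CPM with apoE3, higher in 4 of 4 pairs. Its blocked log2 fold changes of 0.04 ± 0.15 with apoE2, 0.39 ± 0.15 with apoE3 and 0.33 ± 0.15 with apoE4 did not pass (edgeR, adjusted p = 0.951, 0.0976 and 0.276). The study counted cells stained for GFAP, the product of Gfap, at the age of harvest. It reports that their share of all cells did not vary significantly between treatments. Those cells were grown on coverslips, whereas the neurons for sequencing were grown directly on the well bottom. The part of astrocytes in these results was not tested.

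**Figure D2:**
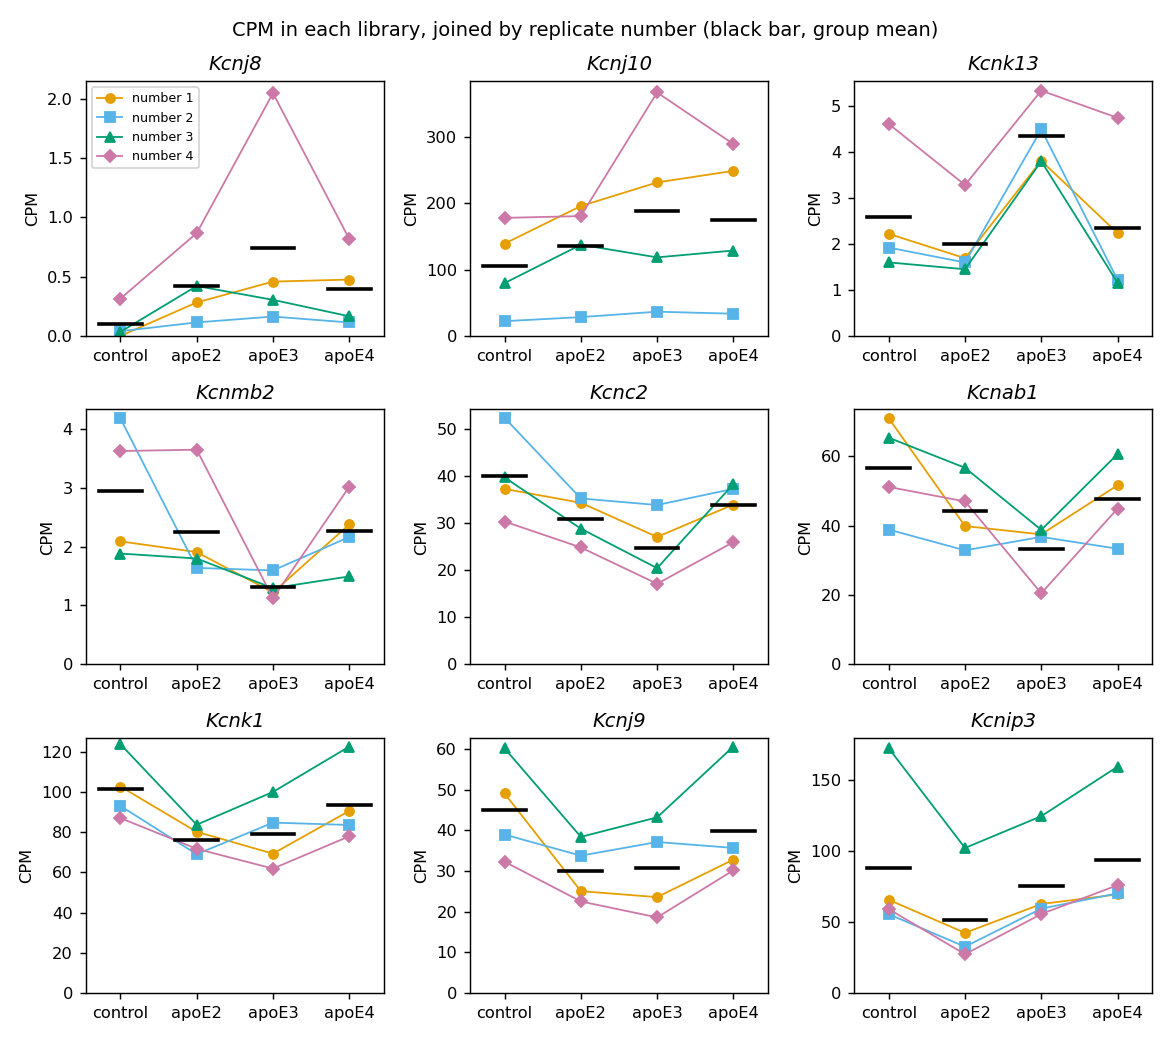
CPM of 9 members in each of the 16 libraries, with lines joining libraries of the same replicate number and black bars at the group means. Kcnj8 and Kcnj10 lie above the control library of the same number in every isoform library, Kcnmb2 and Kcnab1 separate apoE3 from control, and Kcnip3 is lowest with apoE2 in each number.

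The K2P genes moved in both directions with apoE3. Kcnk13, which encodes THIK-1, a halothane-inhibited channel known from microglia, had 2.22, 1.93, 1.60 and 4.62 CPM in control libraries 1 to 4 and 3.82, 4.50, 3.81 and 5.34 CPM with apoE3. It was higher in each pair, and only control library 4 reached into the apoE3 range. Kcnk13 rose by 0.89 ± 0.23 on the log2 scale (SE, blocked edgeR fit, adjusted p = 0.0222), against 0.76 ± 0.46 without the block (edgeR, adjusted p = 0.805). The 5 microglial markers summed to 5.82 to 23.9 CPM in the control libraries and 6.58 to 28.1 CPM with apoE3, 2 had higher and 3 lower values, and none passed. Kcnk2, the mechanosensitive TREK-1, rose by 0.54 ± 0.15 and Kcnk4, the related TRAAK, fell by 0.84 ± 0.19 on the log2 scale, with blocked edgeR adjusted p of 0.0302 and 0.0126. Per 1000 CPM of astrocyte markers Kcnk2 was not higher with apoE3, at 11.2 ± 10.04 CPM in the control libraries and 7.74 ± 7.73 with apoE3, and the ranges overlapped. The Kcnk13 call was kept in 9 of 16 fits (edgeR, highest adjusted p = 0.0800), not without apoE3 library 1, 2 or 3 or any 1 control library. Kcnk2 kept its call in 11 fits (edgeR, highest adjusted p = 0.134), not without apoE3 library 1 or 4 or control library 1, 3 or 4, and Kcnk4 in 15 (edgeR, highest adjusted p = 0.0594), not without apoE3 library 3.

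Kcnk1 had 102.8, 93.1, 124 and 87.1 CPM in control libraries 1 to 4, 69.4, 84.8, 100.1 and 61.9 CPM with apoE3, and 80.3, 69.1, 83.8 and 71.8 CPM with apoE2. All apoE2 libraries lay below all control libraries, as did 1.04% of all genes, while the apoE3 group overlapped the control group. Kcnk1 fell by 0.37 ± 0.09 on the log2 scale with apoE3 (SE, blocked edgeR fit, adjusted p = 0.0168) and by 0.40 ± 0.09 with apoE2 (adjusted p = 0.0343), and without the block its log2 fold changes were -0.36 ± 0.17 and -0.42 ± 0.17. In the apoE4 libraries it stood at 78.0 to 123 CPM, with a log2 fold change of -0.12 ± 0.17. The call was kept in 13 of 16 fits with apoE3 (edgeR, highest adjusted p = 0.0803), not without apoE3 library 1 or 4 or control library 1. It was kept in 10 with apoE2 (edgeR, highest adjusted p = 0.158), not without apoE2 library 2 or 3 or any 1 control library.

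Kcnj9, which encodes GIRK3, a subunit of the G protein-activated channels that inhibitory receptors open, had 49.1, 39.0, 60.2 and 32.3 CPM in control libraries 1 to 4. It had 25.1, 33.8, 38.4 and 22.5 CPM with apoE2 and 23.6, 37.2, 43.2 and 18.6 CPM with apoE3, lower in each of these 8 pairs with overlapping groups. The decreases were 0.59 ± 0.13 on the log2 scale in both comparisons, with blocked edgeR adjusted p of 0.0357 and 0.0111. Per 1000 CPM of neuronal markers Kcnj9 stood at 8.22 ± 1.56 CPM in the control libraries, 5.26 ± 0.140 with apoE2, 6.13 ± 0.433 with apoE3 and 7.63 ± 1.84 with apoE4. Kcnj3, with which GIRK3 assembles, had log2 fold changes of 0.06 ± 0.19 and -0.13 ± 0.19 without the block. Kcnj4 fell by 0.36 ± 0.11 with apoE3 (blocked edgeR fit, adjusted p = 0.0423). The Kcnj9 call was kept in 13 of 16 fits with apoE3 (edgeR, highest adjusted p = 0.0589), not without apoE3 library 1 or 4 or control library 1. It was kept in 9 with apoE2 (edgeR, highest adjusted p = 0.163), not without apoE2 library 1, 2 or 3, apoE3 library 3 or control library 1, 3 or 4. Kcnj4 kept its call in 8 fits (edgeR, highest adjusted p = 0.161), not without library 1, 3 or 4 of the control group, apoE3 library 1 or 4, apoE2 library 2 or apoE4 library 1 or 3.

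The levels of 6 of the members that fell with apoE3, Kcnc2, Kcnab1, Kcnd2, Kcnk1, Kcnj9 and Kcnmb2, were also set against those of the neuronal markers, and the apoE3 means were lower on this scale. Per 1000 CPM of these 8 markers Kcnc2 stood at 7.28 ± 1.04 CPM in the control libraries and 5.22 ± 1.48 with apoE3, Kcnab1 at 10.7 ± 3.57 and 6.93 ± 1.45, and Kcnd2 at 19.7 ± 1.48 and 14.5 ± 2.30. On the same scale Kcnk1 stood at 18.8 ± 3.04 and 16.6 ± 3.40 CPM, Kcnj9 at 8.22 ± 1.56 and 6.13 ± 0.433, and Kcnmb2 at 0.563 ± 0.273 and 0.282 ± 0.0805. The control and apoE3 ranges overlapped for each of the 6 but Kcnd2, and for Kcnk1 the means were within 1 SD. For Kcnd2, chosen after its values were seen, the highest apoE3 library, at 17.3, lay below the lowest control library, at 18.1. The share of all genes that separate on this scale was not computed. Of the neuronal markers themselves Gad1 and Snap25 fell with apoE3 and Tubb3 rose in the blocked edgeR fit. The part of neuron number in these results was not tested.

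**Figure D3:**
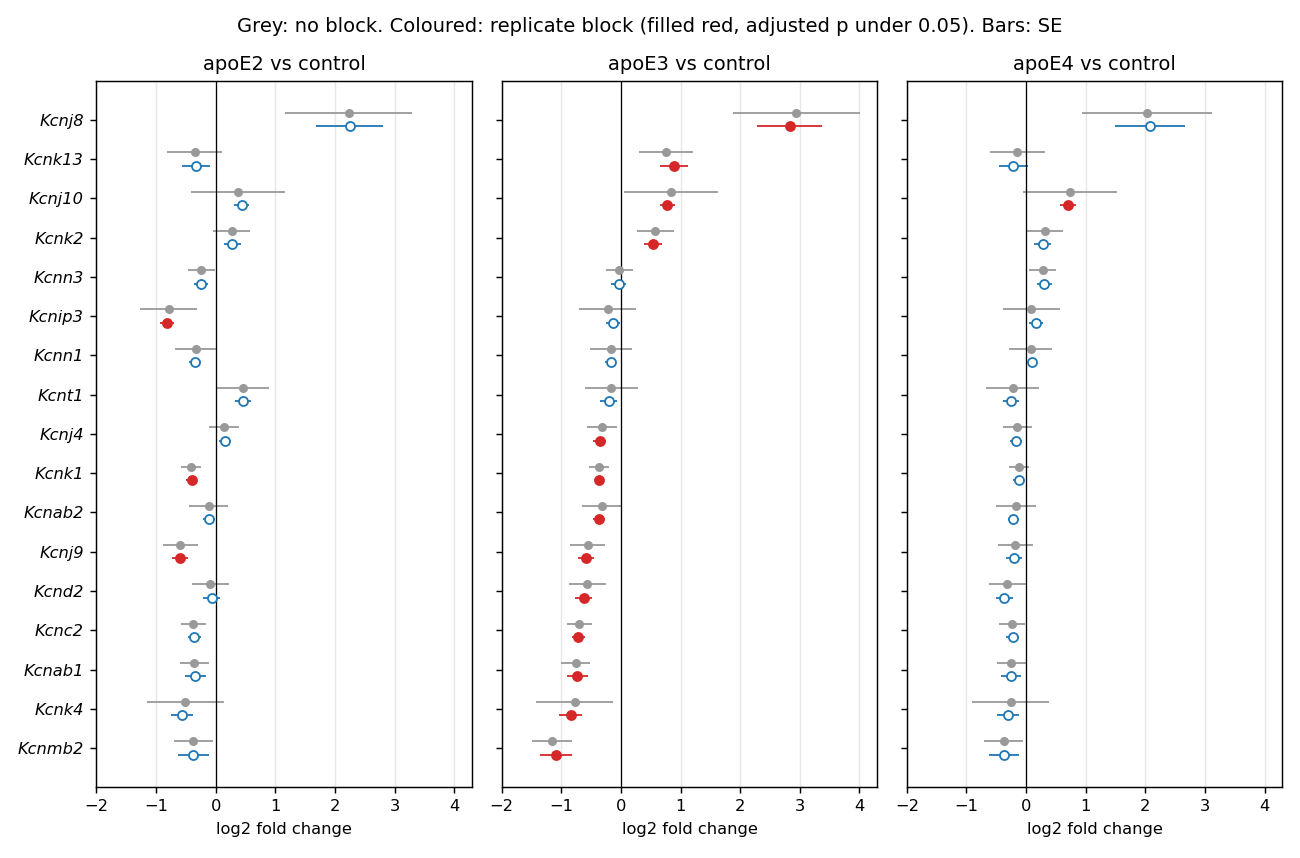
Log2 fold changes against the control neurons, with SE bars, for the 17 members called in any comparison of the blocked fit, without the block (grey) and with it (open blue, or filled red where the adjusted p was under 0.05). For Kcnj10 with apoE3 the estimates were 0.85 without and 0.78 with the block, with SEs of 0.79 and 0.13.

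With apoE2, 3 members fell and none rose, Kcnip3, Kcnk1 and Kcnj9, or 4% of the members against 0.542% of all genes lower. In this comparison 6 of 8 neuronal markers had lower values, with a median log2 fold change of -0.09, and 7 of 7 astrocyte markers higher values, with a median of 0.27. Top2a rose by 1.84 (blocked edgeR fit, adjusted p = 0.0137), while Mki67 did not pass. The part of these cell types in the members' values was not tested. Kcnip3 encodes KChIP3, also called DREAM or calsenilin, a calcium sensor that binds Kv4 channels and presenilins and represses transcription. It had 65.6, 55.5, 173 and 59.1 CPM in control libraries 1 to 4 and 42.4, 32.6, 102 and 27.3 CPM with apoE2. Library 3 was the highest in every group, which made the groups overlap, and apoE2 was lowest within each number. The log2 fold change was -0.81 ± 0.12 (SE, blocked edgeR fit, adjusted p = 0.00412) and -0.79 ± 0.48 without the block (edgeR, adjusted p = 1.00). With apoE3 and apoE4 Kcnip3 had 62.7, 59.4, 125 and 55.6 CPM and 69.5, 70.2, 160 and 76.0 CPM, and the blocked log2 fold changes of -0.13 ± 0.12 and 0.17 ± 0.12 against the control neurons did not pass (edgeR, adjusted p = 0.493 and 0.505).

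The difference in Kcnip3 was tested directly between isoforms. In the blocked edgeR fit it was higher with apoE4 than with apoE2 by 0.98 ± 0.12 on the log2 scale (adjusted p = 0.000244) and higher with apoE3 than with apoE2 by 0.68 ± 0.12 (adjusted p = 0.0148), in 4 of 4 pairs each. Both comparisons share the apoE2 libraries. Without the block the differences were 0.88 ± 0.48 and 0.57 ± 0.48 and did not pass. The other KChIP genes, Kcnip1, Kcnip2 and Kcnip4, were not called in any comparison with or without the block in edgeR when all libraries were kept. DESeq2 with the block called Kcnip2 lower with apoE3. The difference of apoE4 from apoE2 was called in all 16 fits and that of apoE3 from apoE2 in 14 (edgeR, highest adjusted p = 0.0568), not without apoE2 library 2 or apoE3 library 1.

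The differences of apoE4 from apoE2 also included a pair of SK channel genes. Kcnn2, another SK gene, had a lower mean with apoE4, at 30.97 ± 18.85 CPM against 34.69 ± 13.85 with apoE2, and was not called. In this comparison 7 of 7 astrocyte markers, 6 of 6 tested vascular and fibroblast markers and 4 of 8 neuronal markers had higher values. Col1a1 was called higher in the blocked edgeR fit. The part of these cell types in the members' values was not tested. Kcnn3, which encodes SK3, a calcium-activated channel of the afterhyperpolarization, had 15.3, 28.04, 17.4 and 18.3 CPM with apoE2 and 30.8, 30.6, 25.1 and 27.3 CPM with apoE4. It was higher in each pair, with apoE2 library 2 inside the apoE4 range, by 0.55 ± 0.12 on the log2 scale (blocked edgeR fit, adjusted p = 0.0170) and 0.52 ± 0.23 without the block (edgeR, adjusted p = 0.885). Kcnn1, named after its values were seen, was higher by 0.44 ± 0.09 (blocked edgeR fit, adjusted p = 0.0152). Kcnb2 had 20.4, 36.8, 50.6 and 21.2 CPM with apoE2 and 42.6, 44.8, 52.7 and 41.3 CPM with apoE4, higher in each pair, and its blocked difference of 0.56 did not pass (edgeR, adjusted p = 0.0704). Kcnn3 kept its call in 12 of 16 fits (edgeR, highest adjusted p = 0.0840), not without library 1 or 4 of the apoE2 group or library 1 or 3 of the apoE4 group, and Kcnn1 in 14 (edgeR, highest adjusted p = 0.0643), not without library 4 of either group.

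Kcnt1, the sodium-activated channel Slack and also named after its values were seen, went the other way. It had 17.6, 33.3, 13.0 and 14.9 CPM with apoE2, 11.8, 22.9, 10.8 and 5.74 CPM with apoE3 and 11.1, 20.9, 9.63 and 7.25 CPM with apoE4. ApoE2 was the highest of these 3 groups in each number, although the groups overlapped because library 2 was high throughout. The blocked differences from apoE2 were -0.71 ± 0.14 for apoE4 and -0.66 ± 0.14 for apoE3, with edgeR adjusted p of 0.00896 and 0.0343. Against the control neurons Kcnt1 did not pass in the blocked edgeR fit with apoE2, apoE3 or apoE4 (adjusted p = 0.122, 0.3785 and 0.402). With apoE2, where the difference was 0.45 ± 0.14, it was called higher by DESeq2 with the block and by the blocked edgeR fit without the libraries numbered 4, both of which were chosen after seeing the data. The difference of apoE4 was called in all 16 fits and that of apoE3 in 9 (edgeR, highest adjusted p = 0.112), not without library 1, 2 or 4 of the apoE2 or apoE3 group or apoE4 library 3.

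Between apoE3 and apoE2, Kcnk13 was the only member past the 2-fold criterion, and it had 1.69, 1.60, 1.45 and 3.29 CPM with apoE2, all below the 3.81 to 5.34 CPM of the apoE3 libraries, a separation shown in this direction by 0.71% of all genes. The log2 difference was 1.11 ± 0.46 without the block (edgeR, adjusted p = 1.00) and 1.22 ± 0.24 with it (edgeR, adjusted p = 0.0233). Kcnmb2 separated these groups in the opposite direction, as did 0.975% of all genes, at 1.64 to 3.64 CPM with apoE2, and its log2 difference of -0.78 ± 0.34 without the block did not pass (edgeR, adjusted p = 1.00). Kcnj4 had 156, 150, 190 and 136 CPM with apoE2 and 119, 111, 160 and 68.8 CPM with apoE3, lower in each pair with overlapping groups, by 0.51 ± 0.11 on the log2 scale (blocked edgeR fit, adjusted p = 0.0301). The Kcnk13 and Kcnj4 calls were each kept in 10 of 16 fits (edgeR, highest adjusted p = 0.0814 and 0.0999), not without apoE3 library 1, 2 or 3 or apoE2 library 2 or 4, nor, for Kcnk13, without apoE2 library 3, and for Kcnj4 without apoE3 library 4.

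Relative to apoE3, apoE4 libraries had higher values in 53 of the 75 members, with a median log2 difference of 0.16 beside -0.02 over all genes. In the same comparison 6 of 8 neuronal markers were higher, with a median of 0.13, while 6 of 7 astrocyte markers and 7 of 7 oligodendrocyte-lineage markers were lower, with medians of -0.16 and -0.32, and their part in the members' values was not tested. This comparison and that of apoE3 with the control neurons share the apoE3 libraries. Kcnc2 was higher with apoE4, at 33.99, 37.3, 38.3 and 26.0 CPM, by 0.49 ± 0.11 on the log2 scale (blocked edgeR fit, adjusted p = 0.0365), and Kcnk13 was lower, at 2.24, 1.22, 1.16 and 4.75 CPM, by 1.11 ± 0.24 (adjusted p = 0.0279). Each kept its direction in 4 of 4 pairs, and library 4 brought the Kcnk13 ranges into overlap. The interneuron marker Gad1 was also called higher with apoE4 in the blocked edgeR fit, at 246 ± 44.2 CPM against 163 ± 55.2 with apoE3, and its part in the Kcnc2 result was not tested. Kcnmb2 and Kcnab1 had log2 differences of 0.78 ± 0.34 and 0.51 ± 0.25 without the block, which did not pass, and with the block the edgeR adjusted p were 0.221 and 0.184. The Kcnc2 call was kept in 9 of 16 fits (edgeR, highest adjusted p = 0.166), not without library 1, 3 or 4 of the apoE3 or apoE4 group or control library 3. The Kcnk13 call was kept in 10 (edgeR, highest adjusted p = 0.125), not without library 1, 2 or 3 of the apoE3 or apoE4 group.

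With apoE4 against the control neurons no member other than Kcnj10 passed. After Kcnj8, the smallest p values without the block were those of Kcnu1, the Slo3 channel known from sperm, and of Kcnd1, a Kv4 gene. Kcnu1 had 3.09, 4.17, 2.23 and 3.67 CPM in control libraries 1 to 4 and 2.24, 3.33, 1.83 and 2.503 CPM with apoE4. It was lower in each pair, and the log2 fold change of -0.40 ± 0.27 did not pass (edgeR, adjusted p = 1.00). Kcnd1 had 2.91, 4.17, 2.30 and 2.57 CPM in the control libraries and 4.34, 3.90, 4.92 and 2.55 CPM with apoE4, with 2 pairs in each direction, and its log2 fold change of 0.39 ± 0.28 did not pass either (edgeR, adjusted p = 1.00).

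Genes whose products associate with these channels were followed from a list of 18, of which 15 were tested. With apoE3, 13 had lower and 2 higher values, and in the blocked edgeR fit Lgi1 and Cntnap2, which organize Kv1 channel complexes, Dlg2, a scaffold of the same complexes, and Amigo1, a Kv2 partner, fell by 0.57, 0.39, 0.47 and 0.31 on the log2 scale (adjusted p = 0.00793, 0.0348, 0.0285 and 0.0352). Of all genes tested in this comparison, 47.6% had lower values and 3.57% were called lower in the blocked fit, and the neuronal markers had lower values in 7 of 8 cases, whose part in the partner genes' values was not tested. With apoE2 and apoE4 none was called against the control neurons.

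The replicate number went with the members' levels more than the group did. Over the 75 members the median share of the variance of log2 CPM that lay between numbers was 64.4%, and between groups 11.9%, beside 55.5 and 14.5% over all genes tested. The share between numbers was the larger for 72 of the 75 members, the exceptions being Kcnmb2, Kcnc2 and Kcnab1, and for 81.7% of all genes. The range of the 4 number means had a median of 1.02 on the log2 scale for the members and 0.62 for all genes.

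The order of the numbers differed between members, and those given here were chosen after their values were seen. Kcnj10, with number means of 204, 30.2, 116 and 254 CPM, Kcnj16, with 9.39, 4.73, 13.1 and 25.0 CPM, and Kcnmb1, which encodes a BK beta subunit of smooth muscle, with 0.244, 0.0416, 0.215 and 1.17 CPM, were highest in number 4 and lowest in number 2. Kcnq3, with 90.2, 153, 236 and 53.3 CPM, and Kcnv1, with 57.2, 86.2, 145 and 42.9 CPM, were lowest in number 4 and highest in number 3. Kcnip3 and Kcnf1 stood out in number 3 at 140 and 79.4 CPM, where the other numbers averaged 54.4 to 60.03 and 35.3 to 37.8 CPM. Kcnh1 had the smallest range, 0.33 on the log2 scale. The astrocyte markers were likewise highest in number 4 and lowest in number 2, and the neuronal markers lowest in number 4.

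**Figure D4:**
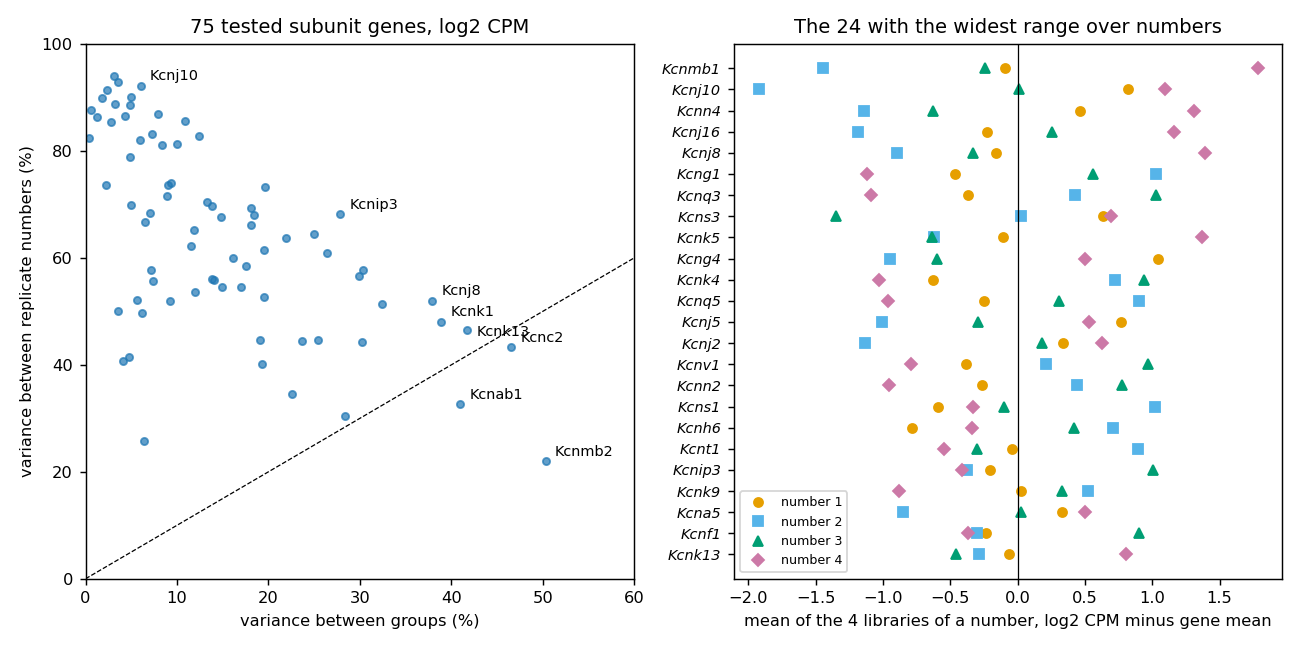
Left, share of the variance of log2 CPM between replicate numbers against the share between groups for the 75 tested members, with the dashed line at equality. Right, the mean of the 4 libraries of each number, relative to the gene's mean, for the 24 members with the widest range, from Kcnmb1 to Kcnk13, with Kcnmb1 spanning 3.23 on the log2 scale.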

How the data were processed

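The deposited values were whole-number counts per gene symbol, which the authors obtained by aligning reads from rRNA-depleted libraries to mm10 with STAR and counting with HTSeq. The strand setting and annotation were not given in the sources used here. Values assigned to no gene were left out and made up 38.4 to 73.75% of all values in a library, gene counts included. Genes with at least 10 counts in at least 4 libraries were tested. Libraries were scaled by TMM and fitted together with edgeR 4.0.16 (limma 3.58.1, R 4.3.3) by the quasi-likelihood test, 1 coefficient per group, with Benjamini-Hochberg adjustment over all genes tested. DESeq2 1.42.0 was an alternative, and the scripts were checked on simulated data. No libraries held identical values.

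The replicate numbers were taken to pair the libraries. After subtraction of the group means, log2 CPM of libraries with the same number correlated at 0.346 to 0.823 over all genes and at 0.308 to 0.874 over the members, and every such pair was above 0.1. Libraries with different numbers correlated at -0.826 to 0.556 over all genes and at -0.845 to 0.477 over the members. The value of 0.556, between a library numbered 1 and one numbered 4, was above all those among the libraries numbered 1, which were 0.346 to 0.538. The fit with the replicate number as a block is therefore given beside that without it, and the common dispersion was 0.132 without and 0.0179 with the block.

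Genes were named if, without the block, they passed an adjusted p of 0.05 or the 2-fold criterion, or were among the 3 smallest p in a comparison, if they were among the 2 highest of a family in control neurons, or if they were Kcnj8, Kcnmb2, Kcnj10 or Kcnj16. Other genes were named after their values were seen, and a few members and sequences that the rules select are not reported here. The gene family, and thereby its members, and the lists were chosen with earlier results of these data known, although the rule for members reads only symbols.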

Additional observations from a re-analysis of the deposited data

Results flagged for a closer look

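Single libraries stood apart from the other 3 of their group in 8 of 60 groups examined over 15 genes. The measure was the gap to the nearest library relative to the range of the group, where chance gives about 1 in 20 for independent groups of normal values. These groups are not independent, since the replicate numbers recur in each, and all 8 libraries were numbered 3 or 4. For Kcnip3 these were library 3 of the control, apoE3 and apoE4 groups at 172.5, 124.6 and 159.5 CPM. For Kcnj8 they were control library 4 at 0.315 CPM and apoE3 library 4 at 2.05 CPM. Kcnk13 and Kcnmb2 stood apart in apoE2 library 4 at 3.29 and 3.64 CPM, and Kcnab1 in apoE3 library 4 at 20.5 CPM.

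Direct tests between isoforms, with the replicate block, gave log2 differences of 0.49 for Kcnc2 and -1.11 for Kcnk13 between apoE4 and apoE3. Between apoE4 and apoE2 they were 0.98 for Kcnip3, 0.44 for Kcnn1, 0.55 for Kcnn3 and -0.71 for Kcnt1. Between apoE3 and apoE2 they were 0.68 for Kcnip3, -0.51 for Kcnj4, 1.22 for Kcnk13 and -0.66 for Kcnt1.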

How the results depend on the processing

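Comparisons are ordered here as apoE2, apoE3 and apoE4 vs. control, apoE4 vs. apoE3, apoE4 vs. apoE2 and apoE3 vs. apoE2. The replicate block raised the members at an adjusted p under 0.05 from 0 in each to 3, 13, 1, 2, 4 and 4 (edgeR). DESeq2 with the replicate block, chosen after seeing the data, gave 7, 14, 1, 2, 7 and 5, and its share over all genes was not computed. Leaving out 1 library of the blocked fit, also chosen after seeing the data, gave 1 to 5, 6 to 17, 1 to 2, 0 to 2, 2 to 6 and 0 to 4 members. The share of all genes called was not computed for these fits. Leaving out the 4 libraries numbered 4 gave 6, 7, 1, 2, 2 and 3 members, against 4.14, 8.53, 3.01, 2.11, 2.75 and 0.675% of all genes. Of 27 blocked calls over 17 genes, 8 were made in each of the 16 fits that left out 1 library and 17 without number 4. With apoE3 the count fell from 13 to 6 without apoE3 library 1 or control library 1 and to 7 without apoE3 library 4. With apoE2 it fell to 1, Kcnip3, without apoE2 library 2 or 3 or control library 1, 3 or 4, and rose to 5 without apoE2 library 4. For apoE4 vs. apoE3 it fell to 0 without library 1 or 3 of either group, for apoE3 vs. apoE2 to 0 without apoE2 library 2 or apoE3 library 1, and for apoE4 vs. apoE2 to 2 without apoE2 library 4. Library 1 also differed in depth between groups, with 20438089 gene counts in the control group. With apoE2, apoE3 and apoE4 library 1 had 15984860, 14087723 and 15720376. Values assigned to no gene were 61.8% of all values in control library 1. They were 73.75, 71.55 and 73.07% in library 1 of the isoform groups, in the same order. The part of this difference in the blocked calls was not tested. Without the block, leaving out a library gave 0 in each comparison. The 2-fold criterion was met by 0, 2, 0, 0, 0 and 1 members. Without the count minimum these were 2, 4, 0, 1, 1 and 2, and with the replicate block 1, 3, 1, 1, 0 and 2. DESeq2 with the replicate block gave 1 with apoE2, 1 with apoE4, 1 for apoE4 vs. apoE3 and 2 for apoE3 vs. apoE2. DESeq2 and the fit of only the 2 groups compared each gave 1 with apoE2, and filterByExpr gave 1 with apoE3. Leaving out a library gave 0 to 3, 1 to 5, 0 to 1, 0 to 1, 0 to 3 and 0 to 3. With apoE3 the count was 1 without apoE3 library 4 or control library 2 and 5 without control library 4. Kcnj16 with apoE2 had a log2 fold change of -0.054, which turned to 0.043 with the replicate block and to 0.029 with DESeq2 and the replicate block. It ranged from -0.40 to 0.42 without 1 library. With apoE3 and apoE4 it ranged from -0.16 to 0.89 and from -0.24 to 0.86, negative only without library 4 of the isoform group. Over 41 pairs of a named gene and a comparison, the settings without a block left 829 values on the same side of an adjusted p of 0.05 and of the 2-fold criterion, while 6 no longer passed either and 18 newly passed 1 of them. The other 5 turned in direction, all for Kcnj16 when 1 library was left out, 3 with apoE2 and 1 each with apoE3 and apoE4. With the replicate block, in edgeR and in DESeq2, 27 values stayed on the same side, 53 newly passed and 2 turned in direction. The pairs include all blocked edgeR calls, so that these values were in part chosen for passing. DESeq2 size factors in place of TMM changed no count. Among marker and partner genes, calls made with the replicate block and not without it also included Top2a with apoE2 and for apoE4 vs. apoE3, Cspg4 with apoE4, Olig2 for apoE4 vs. apoE3, Col1a1 for apoE4 vs. apoE2 and Lgi1 for apoE3 vs. apoE2. Kcnk5 met the 2-fold criterion with the block and not without it, at 1.30 with apoE3 and 1.19 for apoE3 vs. apoE2, and Kcnj8 likewise with apoE2 and apoE4. The causes were not tested. Low counts limit Kcnj8 most, with 8 counts in the control libraries together.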
